A study of Homo sapiens with 7 samples.

Results

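The miR-183 cluster, which also holds miR-96 and miR-182, is a set of microRNAs cut from 1 long precursor RNA, and its levels were followed in HepG2 cells while the transcription factor TEAD1 was silenced. Its members were found by name in the deposited files: hsa-miR-183-5p, hsa-miR-183-3p, hsa-miR-96-5p and hsa-miR-182-5p, written here without the species prefix, 4 of the 2652 mature miRNAs listed. All 4 had reads in all 7 libraries, and all 4 passed the filter on low counts, a mean of at least 10 reads per library. HepG2 is an established human hepatocellular carcinoma line. The 6 siRNA-treated libraries came from cells given siRNA 1 or siRNA 2 against TEAD1 for 24, 36 or 48 h, with 1 library for each siRNA and time, and the remaining library came from untreated cells at 0 h. All cells are labelled wild type in genotype. TEAD1 messenger RNA is not read in small RNA libraries, so its silencing could not be checked. The untreated library is a 0 h sample, and no library of cells given a control siRNA was analysed here, so transfection, the hours that passed and the loss of TEAD1 cannot be told apart. Nothing in the labels says whether libraries came from separate cultures, so a p-value here speaks of the spread among these 7 libraries and that spread may be technical. In the tests by time, the 2 libraries of a time serve as replicates although they were given different siRNAs. Their spread therefore also holds any difference between the siRNAs.

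An miRNA guides a silencing complex to messenger RNAs that pair with its seed, the stretch of bases near its 5′ end. The 3 hairpins of this cluster are known for high expression in sensory cells, the hair cells of the ear and the photoreceptors of the retina among them, and seed changes in miR-96 cause hearing loss in people and mice. The cluster is also often raised in carcinomas, and its 5p strands have been reported to silence FOXO transcription factors. TEAD1 is a DNA-binding partner of the Hippo pathway coactivators YAP and TAZ, and the question of the series was which miRNAs change when it is silenced.

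The mature sequences are shown because the 3 abundant strands have seeds that differ at 1 or 2 bases, while the spread of their log2 CPM differed. Bases 2 to 8, the seed, are in capitals, each sequence runs 5′ to 3′, and each was the same in the deposited files and in RefSeq on GRCh38.p14.
miR-183-5p: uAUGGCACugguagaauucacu
miR-96-5p: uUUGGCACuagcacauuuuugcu
miR-182-5p: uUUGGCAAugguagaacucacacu
miR-183-3p: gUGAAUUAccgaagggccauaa
miR-96-3p: aAUCAUGUgcagugccaauaug
miR-182-3p: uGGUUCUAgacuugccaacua

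Counting from 1 at the 5′ end and giving the base of the miRNA named first, miR-183-5p differed from miR-96-5p over bases 1 to 8 by A2U alone, and miR-96-5p differed from miR-182-5p by C8A alone. miR-183-5p and miR-182-5p carried both changes, A2U and C8A. Beyond the seed the order of likeness was another: miR-183-5p and miR-182-5p differed at 4 of 22 bases when aligned from the 5′ end without gaps, miR-183-5p and miR-96-5p at 9 of 22, and miR-96-5p and miR-182-5p at 11 of 23. So the 3 strands have 3 different seeds of 7 bases, related but not shared. No other listed miRNA has the seed of miR-183-5p or miR-182-5p. The seed of miR-96-5p recurs in miR-1271-5p and miR-12133, neither of which was measurably present, with 0 or 1 read per library for miR-1271-5p and 0 for miR-12133.

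The 3 hairpins lie on the minus strand of chromosome 7 in GRCh38.p14, in the order MIR183, MIR96, MIR182 in the direction of transcription. MIR183 spans chr7:129774905-129775014, MIR96 chr7:129774692-129774769 and MIR182 chr7:129770383-129770492. MIR183 and MIR96 are 135 bases apart, MIR96 and MIR182 are 4199 bases apart, and the whole set covers 4632 bases. Within the hairpins, miR-183-5p maps to chr7:129774967-129774988, miR-183-3p to chr7:129774928-129774949, miR-96-5p to chr7:129774739-129774761 and miR-182-5p to chr7:129770447-129770470. In GENCODE v29, whose coordinates are also on GRCh38, no gene other than the 3 miRNA genes overlaps them, so they are annotated as neither exonic, intronic nor UTR. The genes annotated within 20000 bases are NRF1, which encodes a transcription factor and lies on the plus strand, the rRNA pseudogene RNA5SP244, also on the plus strand, and the lincRNA AC084864.1 on the minus strand.

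Reads assigned to miRNAs numbered 1920832 to 3739729 in the siRNA-treated libraries and 6171851 in the untreated library. Values are given as counts per 1000000 miRNA reads (CPM) after TMM scaling, which assumes that most miRNAs keep their level. On this scale 3 reads, the one-sided 95% limit for a count of 0, are worth 0.886 to 1.52 CPM in the siRNA-treated libraries and 0.559 CPM in the untreated one. The libraries did not group by time alone: on the leading principal component of log2 CPM over the tested miRNAs, with 63.1% of the variance, siRNA 2 at 36 h (14.0) lay beside the 48 h libraries (10.6 and 10.8), while siRNA 1 at 36 h (-9.49) lay beside the 24 h libraries (-9.36 and -7.86) and the untreated one (-8.70). Tests and summaries over all times are given with and without the 36 h pair. Of the hepatocyte markers, miR-122-5p was low, at 3.75 to 47.6 CPM with siRNA and 45.5 CPM in untreated cells, and miR-122-3p and miR-885-5p were at 0 in every library. The summed hepatocyte markers nevertheless stood at 16102 to 27464 CPM with siRNA and 21012 CPM in untreated cells, of which miR-148a-3p made up 13919 to 25518 CPM and 18414 CPM. Marker sums of cell types that a pure line should lack were small for blood (15.5 to 78.0 CPM with siRNA, 15.7 CPM untreated; miR-223-3p was at 0) and neurons (40.0 to 51.8 CPM, 34.3 CPM untreated; miR-124-3p was at 0). They were larger for fibroblast and endothelium (438 to 1061 CPM, 454 CPM untreated). The muscle sum reached 876 CPM in siRNA 1 at 36 h, of which miR-1-3p made up 867 CPM, against 23.1 CPM in untreated cells and a median of 27.5 CPM over the 6 siRNA-treated libraries.

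miR-183-5p, the leading strand of its hairpin, kept within a narrow band throughout. hsa-miR-183-5p stood at 3065 CPM in untreated cells. siRNA 1 gave 3215 CPM at 24 h, 3089 CPM at 36 h and 3054 CPM at 48 h, and siRNA 2 gave 3060, 3357 and 2919 CPM at these times. The 6 treated libraries lay on both sides of the untreated one, with 3 above and 3 below, and averaged 3116 ± 151 CPM (SD, n = 6), or 3062 ± 121 CPM without the 36 h pair (SD, n = 4). The reads behind these values numbered 6106 to 10881 per treated library and 16442 in the untreated one, which put miR-183-5p between the ranks 32 and 39 among all miRNAs. Over the 276 miRNAs averaging 50 reads or more, 1 had a smaller SD of log2 CPM over the 7 libraries than miR-183-5p, whose SD was 0.064, and the median SD was 0.38. Its SD without the 36 h pair was 0.049 and 0 were flatter, with a median of 0.36. This flatness depended on the scale: with total miRNA counts as the scale the SD was 0.21 and 18 miRNAs were flatter, and with all reads of a library as the scale it was 0.50 and 45 were flatter.

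miR-182-5p, the strand of the distal hairpin with the most reads of the cluster in untreated cells, was lower at the later times. hsa-miR-182-5p stood at 4035 CPM in untreated cells. siRNA 1 gave 5165 CPM at 24 h, 3232 CPM at 36 h and 2992 CPM at 48 h, and siRNA 2 gave 3779, 3359 and 2730.37 CPM. Only siRNA 1 at 24 h was above untreated, and both 48 h libraries were below both 24 h libraries. Averages were 4472 ± 980 CPM at 24 h, 3296 ± 90.1 CPM at 36 h and 2861 ± 185 CPM at 48 h (SD, n = 2 each). Its rank among all miRNAs ranged from 28 to 38.

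miR-96-5p, the strand whose seed is mutated in inherited hearing loss, showed the widest range of the 3 abundant members on the log2 scale. hsa-miR-96-5p stood at 1470.05 CPM in untreated cells. siRNA 1 gave 1186 CPM at 24 h, 1078 CPM at 36 h and 665 CPM at 48 h, and siRNA 2 gave 1701, 608 and 617 CPM. siRNA 2 at 24 h was the highest library and the sole treated one above untreated, and siRNA 2 at 36 h was the lowest, level with the 48 h pair. The averages were 1443 ± 364 CPM at 24 h, 843 ± 332 CPM at 36 h and 641 ± 33.7 CPM at 48 h (SD, n = 2 each). Its 95% Clopper-Pearson interval was 632 to 699 CPM in siRNA 1 and 586 to 650 CPM in siRNA 2 at 48 h, and 1438 to 1503 CPM in untreated cells, so counting error is small beside these gaps. Such intervals cover counting error only, since the files hold no molecular identifiers. Its SD of log2 CPM over the 7 libraries was 0.62, and 220 of the 276 miRNAs had a smaller one; without the 36 h pair it was 0.66 and 231 were smaller. Its rank ranged from 53 to 79.

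miR-183-3p, the passenger strand of the MIR183 hairpin, was near the limit of measurement, with 5 to 22 reads in a treated library and 35 in the untreated one. hsa-miR-183-3p stood at 6.52 CPM in untreated cells. siRNA 1 gave 6.50 CPM at 24 h, 7.08 CPM at 36 h and 2.18 CPM at 48 h, and siRNA 2 gave 6.69, 4.13 and 2.92 CPM. The 48 h libraries were the lowest, but their intervals, 0.709 to 5.10 CPM with siRNA 1 and 1.17 to 6.02 CPM with siRNA 2, overlapped that of the untreated library, 4.54 to 9.07 CPM. The passenger strands of the other hairpins were also scarce. miR-96-3p had 1 to 6 reads per treated library and 9 in the untreated one, and miR-182-3p had 2 to 14 reads with siRNA and 27 without. miR-182-3p was lowest at 48 h, at 1.75 CPM with siRNA 1 and 0.834 CPM with siRNA 2, where the untreated value was 5.03 CPM.

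**Figure D1:**
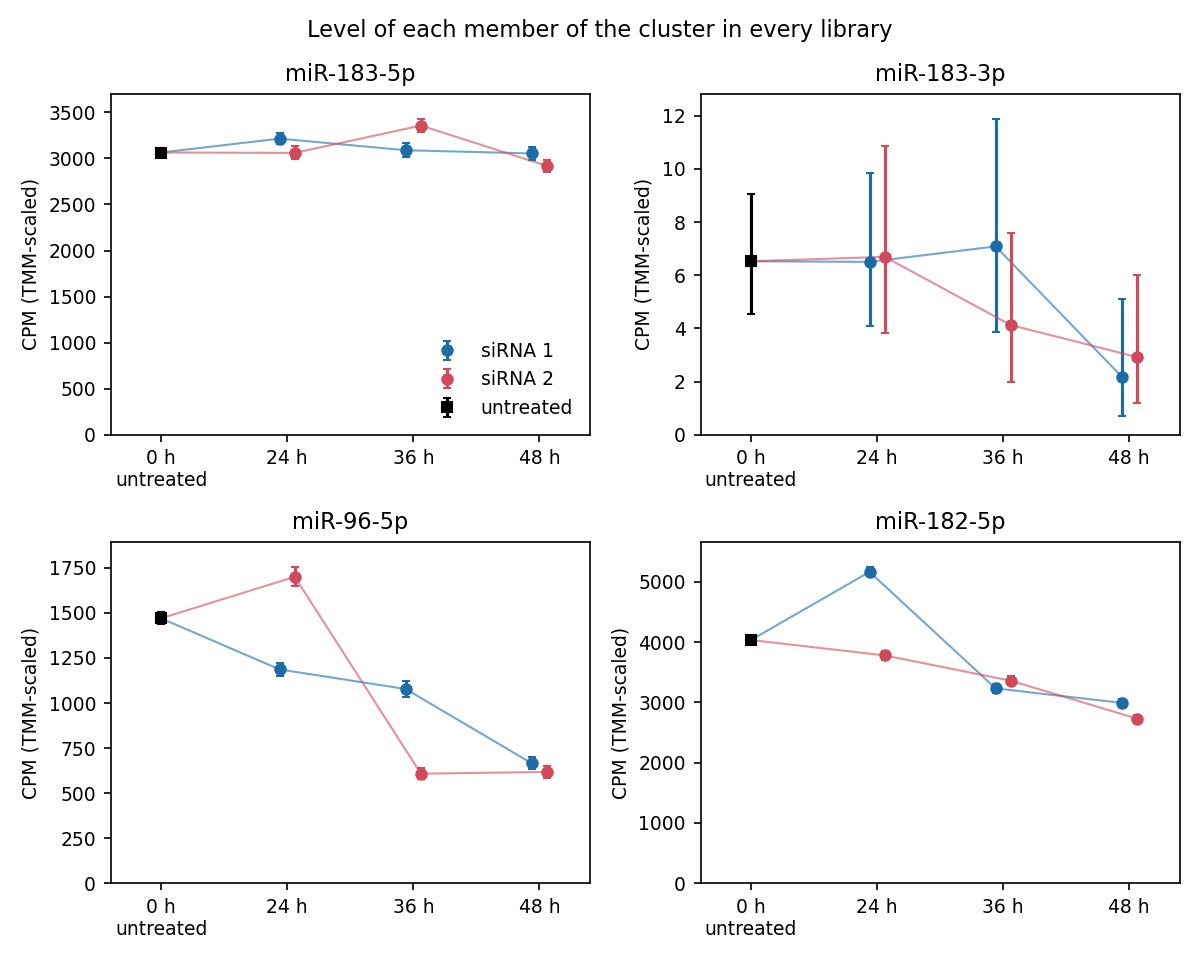
Level of each member (vertical axes, TMM-scaled CPM, linear from 0) against time (horizontal axis, untreated cells at 0 h and 24, 36 and 48 h of siRNA). Each point is 1 library, blue for siRNA 1, red for siRNA 2 and black for untreated, with bars for 95% Clopper-Pearson intervals; miR-183-5p stays between 2919 and 3357 CPM, while miR-96-5p is at 665 and 617 CPM at 48 h.

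The proportions of the members to each other within a library do not depend on how the library is scaled. Reads of different miRNAs are not corrected for how well each sequence is captured, so a proportion is compared between libraries and not read as a ratio of molecules. Together the 4 members made up 0.717% to 0.866% of the miRNA reads of a treated library and 0.745% of the untreated one. Within that total, miR-96-5p took 12.4%, 14.6% and 9.91% with siRNA 1 at 24, 36 and 48 h, 19.9%, 8.29% and 9.85% with siRNA 2, and 17.1% in untreated cells. miR-183-5p took 33.6%, 41.7% and 45.5% with siRNA 1, 35.8%, 45.8% and 46.6% with siRNA 2, and 35.7% in untreated cells. miR-182-5p took 43.5% to 54.0% with siRNA and 47.0% in untreated cells, and miR-183-3p stayed under 0.0957% throughout. At 48 h the makeup was close to the same with either siRNA.

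**Figure D2:**
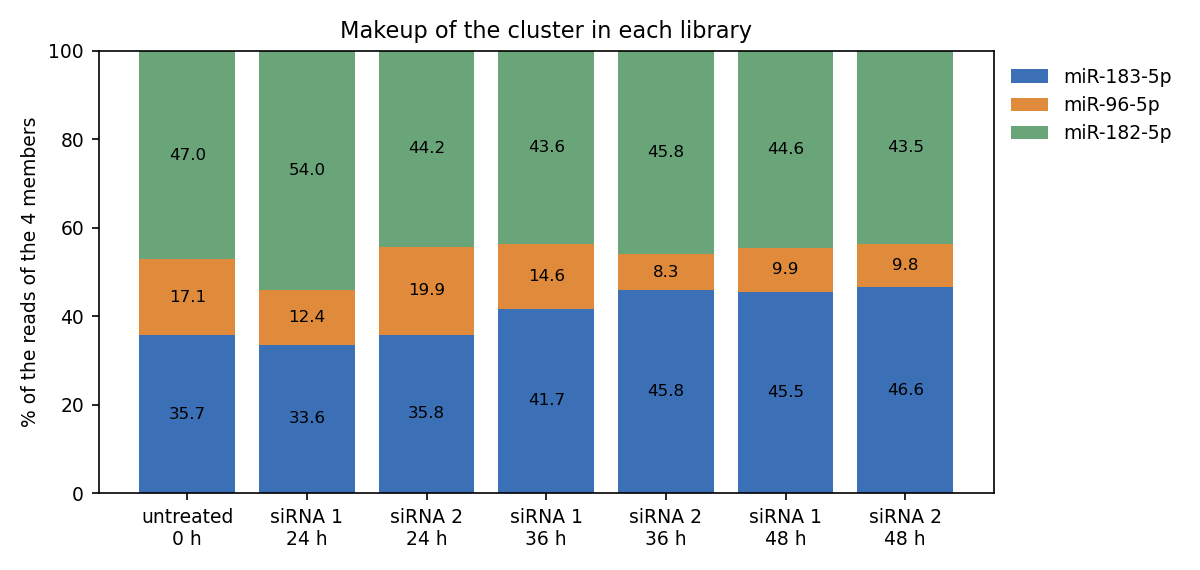
Share of each member in the reads of the 4 members (vertical axis, percent, from 0) in each of the 7 libraries, in order of time from untreated cells. The colours mark miR-183-5p, miR-96-5p and miR-182-5p, and miR-183-3p is too small to be seen; the orange miR-96-5p band is 9.91% and 9.85% at 48 h with siRNA 1 and siRNA 2.

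The ratio of miR-96-5p to miR-183-5p reads was lower at 48 h than at 24 h. It was 0.218 with siRNA 1 and 0.212 with siRNA 2 at 48 h, against 0.369 with siRNA 1 and 0.556 with siRNA 2 at 24 h, a difference of -1.08 in mean log2 ratio. At 36 h it was 0.349 with siRNA 1 and 0.181 with siRNA 2, and in untreated cells it was 0.480. The groups of 48 h and 24 h did not overlap, and the exact permutation test gave a two-sided p of 0.333, the smallest that 2 libraries against 2 allow. Over all times the treated libraries averaged 0.314 ± 0.141 (SD, n = 6), and the mean log2 ratio differed from that of the untreated library by -0.73 (exact permutation p = 0.429, two-sided, where the smallest possible is 0.143). With the 36 h pair left out they averaged 0.338 ± 0.162 (SD, n = 4), and the difference was -0.62 (exact permutation p = 0.800, two-sided, with a smallest possible p of 0.200).

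The ratio of miR-182-5p to miR-183-5p was also lower at 48 h than at 24 h with either siRNA. It was 0.980 with siRNA 1 and 0.935 with siRNA 2 at 48 h, against 1.61 with siRNA 1 and 1.24 with siRNA 2 at 24 h, a difference of -0.56 in mean log2 ratio (exact permutation p = 0.333, two-sided, again the smallest possible). It was 1.05 with siRNA 1 and 1.001 with siRNA 2 at 36 h and 1.32 in untreated cells. So miR-182-5p was the most read member in untreated cells and at 24 h, and the pair was near parity at 36 and 48 h. The ratio of miR-96-5p to miR-182-5p was 0.222 and 0.226 at 48 h with siRNA 1 and siRNA 2, against 0.230 and 0.450 at 24 h, and 0.364 in untreated cells. There the 2 libraries of 24 h differed from each other more than siRNA 1 at 24 h differed from the 48 h pair. Strand choice within the MIR183 hairpin could be followed only coarsely: miR-183-5p had 1399 reads for each read of miR-183-3p with siRNA 1 at 48 h and 1000 with siRNA 2, against 495 and 457 at 24 h, and 470 in untreated cells. With 5 and 7 reads of the passenger strand at 48 h, the 95% intervals, 599 to 4309 and 485 to 2487, overlapped that of untreated cells, 338 to 675.

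**Figure D3:**
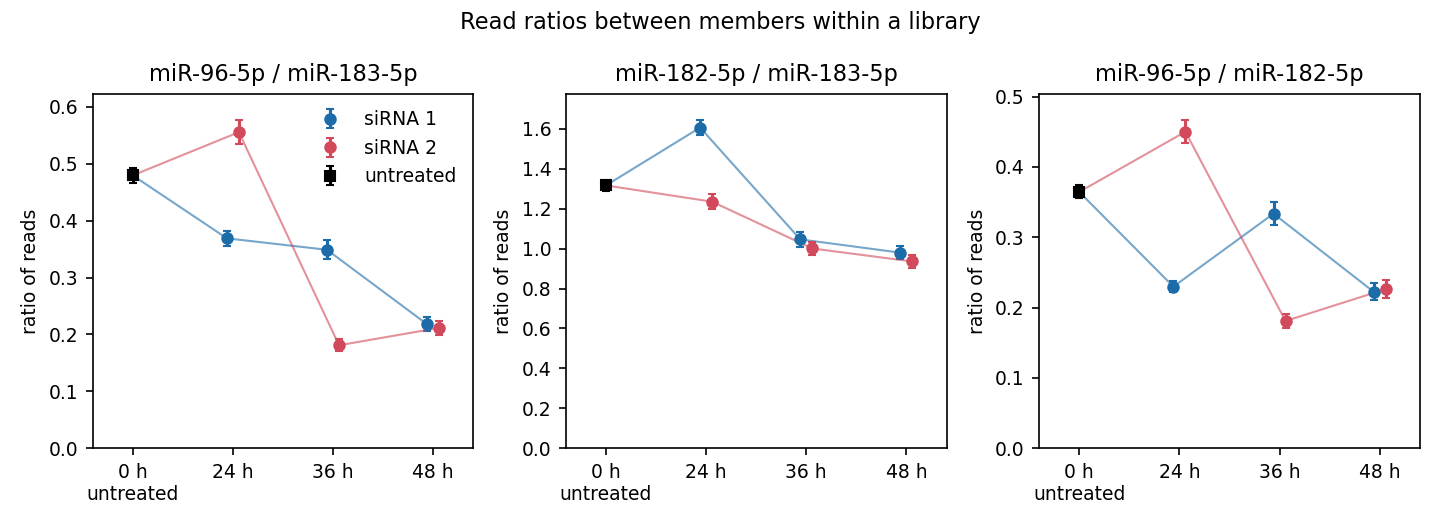
Ratio of reads between members within a library (vertical axes, linear from 0) against time (untreated cells at 0 h and 24, 36 and 48 h of siRNA). Points are libraries, blue for siRNA 1, red for siRNA 2 and black for untreated, with 95% intervals from exact binomial limits; the ratio of miR-96-5p to miR-183-5p is 0.218 and 0.212 at 48 h and 0.480 in untreated cells.

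Each comparison was then tested over all tested miRNAs with edgeR, with p-values adjusted by the Benjamini-Hochberg method. With all 7 libraries in the fit, 0 of 458 miRNAs (0%) passed an adjusted p of 0.05 in any comparison with untreated cells or between times, and none of the 4 members did. limma-voom also called 0 in each comparison, and DESeq2 called 1 for all times against untreated, 1 at 24 h, 7 at 36 h, 12 at 48 h and 23 for 48 h against 24 h, with no member among them. The number with an unadjusted p under 0.05 in edgeR was 23 for all times, 11 at 24 h, 19 at 36 h, 53 at 48 h and 84 for 48 h against 24 h.

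At 48 h against 24 h, the comparison within the treated cells, all 4 members had a lower value in both 48 h libraries than in both 24 h libraries, as did 33% of the tested miRNAs. miR-96-5p had a log2 fold change of -1.17 with a standard error of 0.35 (adjusted p = 0.244 in edgeR), miR-182-5p of -0.64 ± 0.25 (0.250) and miR-183-5p of -0.07 ± 0.22 (0.855). miR-183-3p was at -1.35 ± 0.56 (edgeR adjusted p = 0.260). The median of the 4 members was -0.91, where the median of all tested miRNAs was 0.03. With total miRNA counts as the scale, on which all tested miRNAs had a median of 0.37, miR-183-5p lay higher in both 48 h libraries than in both 24 h libraries and miR-182-5p overlapped between the times, while miR-96-5p and miR-183-3p remained lower.

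Without the 36 h libraries, miR-96-5p and miR-182-5p passed the test. That fit left out the 36 h pair, whose libraries lay furthest apart on the leading principal component (-9.49 and 14.0). This pair also differed most for miR-96-5p, with a log2 ratio of siRNA 2 over siRNA 1 of -0.83. For miR-182-5p it differed least, with a ratio of 0.06 on that scale. The 24 h pair, which differed most for miR-182-5p (-0.45), stayed in the fit. Why the p-values of that fit were smaller was not tested. They understate the error if the gap between the 36 h libraries is typical. With 5 libraries left, they also rest largely on a spread shared over all miRNAs. For miR-182-5p at 48 h against untreated cells, the unadjusted edgeR p fell from 0.140 to 0.0705. The log2 fold change meanwhile went from -0.50 ± 0.30 to -0.45 ± 0.25. The fit without the 36 h libraries called 28.7% of 467 tested miRNAs for 48 h against 24 h, 51 higher and 83 lower, and 17.8% were called lower. miR-96-5p was lower, with a log2 fold change of -1.19 ± 0.22 (edgeR adjusted p = 1.0e-06; range over 17 alternatives 1.0e-06 to 0.718), and miR-182-5p likewise, with -0.66 ± 0.21 (edgeR adjusted p = 0.00751; range 0.00751 to 0.718). The 24 h libraries behind the call of miR-182-5p lay apart, at 5165 CPM with siRNA 1 and 3779 CPM with siRNA 2. Leaving out 1 treated library at a time from the fit of all libraries gave it -0.80 to -0.41. miR-183-5p at -0.09 ± 0.21 (edgeR adjusted p = 0.800) and miR-183-3p at -1.36 ± 0.61 (edgeR adjusted p = 0.0772) did not pass. With total miRNA counts as the scale as well, the calls were 105 higher and 55 lower, miR-96-5p passed at -0.82 (edgeR adjusted p = 0.00767) and miR-182-5p did not, at -0.31 (edgeR adjusted p = 0.330). With all reads of a library as the scale, miR-96-5p was at -1.30 (edgeR adjusted p = 0.0509) and miR-182-5p at -0.88 (edgeR adjusted p = 0.262).

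At 48 h against untreated cells the order of the members was the same, and the 48 h libraries are those of the comparison with 24 h. In the fit of all libraries, miR-96-5p differed by -1.20 ± 0.41 in log2 fold change (edgeR adjusted p = 0.367; unadjusted p = 0.0230), miR-182-5p by -0.50 ± 0.30 (adjusted p = 0.449) and miR-183-5p by -0.04 ± 0.27 (adjusted p = 0.951). miR-183-3p differed by -1.34 ± 0.63 (edgeR adjusted p = 0.367). All 4 members were below untreated in both 48 h libraries, as were 43.9% of the tested miRNAs. Without the 36 h libraries, 25.1% of the tested miRNAs were called and 15.4% were called lower. Of the 4 members miR-96-5p alone passed, at -1.15 ± 0.26 (edgeR adjusted p = 8.6e-05; range over 17 alternatives 8.6e-05 to 0.819), while miR-182-5p was at -0.45 ± 0.25 (edgeR adjusted p = 0.177). Leaving out either 36 h library was enough for this call: miR-96-5p was at -1.17 (edgeR adjusted p = 0.00167) without that of siRNA 1 and at -1.19 (edgeR adjusted p = 9.7e-05) without that of siRNA 2. It also passed without both 36 h libraries and with total miRNA counts as the scale, at -0.84 (edgeR adjusted p = 0.0264).

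**Figure D4:**
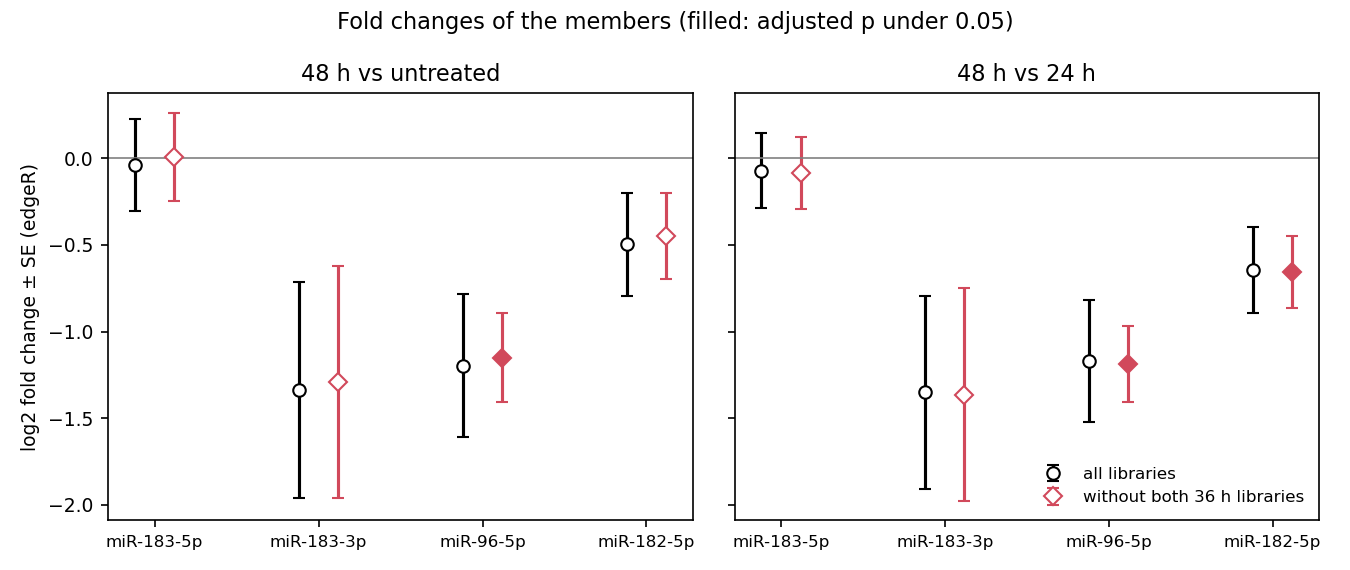
Log2 fold change of each member with its standard error (vertical axis, edgeR) at 48 h against untreated cells and at 48 h against 24 h. Circles come from the fit of all 7 libraries and diamonds from the fit without both 36 h libraries, filled where the adjusted p is under 0.05; miR-96-5p is filled in both panels at -1.15 and -1.19, and miR-182-5p is filled at 48 h against 24 h at -0.66.

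At the earlier times no member passed against untreated cells in the edgeR fit of all libraries with TMM scaling. At 24 h the log2 fold changes were 0.03 ± 0.27 for miR-183-5p, 0.01 ± 0.59 for miR-183-3p, -0.03 ± 0.42 for miR-96-5p and 0.15 ± 0.30 for miR-182-5p (edgeR adjusted p = 0.997 each). Without the 36 h libraries 2.78% of the tested miRNAs were called at 24 h, with no member among them. At 36 h miR-183-5p lay above untreated in both libraries, as did 24.5% of the tested miRNAs, and miR-96-5p and miR-182-5p lay below in both, as did 29.3%. The log2 fold changes were 0.07 ± 0.27 for miR-183-5p (edgeR adjusted p = 0.980), -0.23 ± 0.60 for miR-183-3p (0.962), -0.80 ± 0.41 for miR-96-5p (0.946) and -0.29 ± 0.30 for miR-182-5p (0.946). The 36 h value of miR-96-5p joins libraries that differ, at 1078 CPM with siRNA 1 and 608 CPM with siRNA 2. Without siRNA 1 at 36 h, that is with siRNA 2 as the lone library of this time and assumed to vary like the other groups, it was -1.24 (edgeR adjusted p = 0.00568), and without siRNA 2 at 36 h it was -0.45 and did not pass.

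Over all times, the 6 treated libraries against the untreated one gave -0.68 ± 0.35 for miR-96-5p (edgeR adjusted p = 0.900), -0.21 ± 0.26 for miR-182-5p (0.900), 0.02 ± 0.24 for miR-183-5p (0.992) and -0.52 ± 0.51 for miR-183-3p (0.900). Without the 36 h libraries 10.7% of the tested miRNAs were called, and no member was, with miR-96-5p at -0.56 ± 0.23 (edgeR adjusted p = 0.118). Without siRNA 1 at 36 h alone, miR-96-5p passed at -0.81 ± 0.23 (edgeR adjusted p = 0.0151). No member had all 6 treated libraries on 1 side of untreated, where 10.3% of the tested miRNAs had all 6 above and 13.5% had all 6 below. These tests take the spread of the treated pairs for the untreated library, which has no replicate.

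The siRNAs were compared over the 3 times with 435 tested miRNAs, and edgeR called 0 (0%), although 6 had an unadjusted p below 0.05, while limma-voom and DESeq2 also called 0. The log2 fold changes of siRNA 2 over siRNA 1 were 0.02 ± 0.21 for miR-183-5p, -0.11 ± 0.55 for miR-183-3p, -0.11 ± 0.32 for miR-96-5p and -0.15 ± 0.23 for miR-182-5p (edgeR adjusted p = 0.992 each). When the 36 h pair was left out edgeR also called 0, with 7 at an unadjusted p below 0.05, and the signs of miR-183-3p and miR-96-5p turned, with 0.26 ± 0.66 and 0.31 ± 0.28, while miR-183-5p was at 0.03 ± 0.29 and miR-182-5p at -0.19 ± 0.30 (edgeR adjusted p = 0.998 each). The averages over 3 times joined opposite differences. For miR-96-5p the log2 ratio of siRNA 2 over siRNA 1 was 0.52, -0.83 and -0.11 over the 3 times, and for miR-182-5p it was -0.45, 0.06 and -0.13. At 24 h the siRNAs thus lay apart in opposite directions for these 2 members, miR-96-5p being higher with siRNA 2 and miR-182-5p higher with siRNA 1, with 1 library each and no test.

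The nearest profile of each abundant member over the 7 libraries was that of a miRNA outside the cluster. Likeness was measured as the root mean square distance between profiles of log2 CPM, each centred on its own mean, among 273 non-members averaging 50 reads or more, and it is a description of 7 libraries that share their scaling. With 273 non-members set against only the other abundant members, a nearest non-member says little of whether the cluster moves together. Ranked against the non-members by distance from miR-183-5p, miR-182-5p stood at 76 and miR-96-5p at 220. From miR-96-5p, miR-182-5p stood at 55 and miR-183-5p at 112. From miR-182-5p, miR-183-5p stood at 34 and miR-96-5p at 132. The profile nearest to miR-183-5p was that of miR-30a-3p at a distance of 0.061, then miR-146b-5p at 0.084 and miR-320b at 0.086. For miR-30a-3p the values were 8213, 7960 and 7663 CPM over the 3 times of siRNA 1, 8026, 7727 and 7203 CPM over those of siRNA 2, and 8019 CPM in untreated cells. miR-182-5p lay at 0.26 from miR-183-5p and miR-96-5p at 0.58, and the median non-member at 0.36. miR-30a-3p was again the nearest without the 36 h pair, at 0.034.

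For miR-96-5p the nearest profiles were those of miR-24-1-5p at 0.15, miR-454-3p at 0.18 and miR-362-5p at 0.19, with miR-182-5p at 0.44 and the median non-member at 0.66. miR-454-3p had, like miR-96-5p, its highest value with siRNA 2 at 24 h (485 CPM) and its lowest with siRNA 2 at 36 h (184 CPM), with 243 CPM and 206 CPM at 48 h and 417 CPM in untreated cells. miR-24-1-5p had 24.0 CPM with siRNA 1 and 20.9 CPM with siRNA 2 at 48 h, against 52.3 CPM and 61.9 CPM at 24 h. For miR-182-5p they were let-7i-5p at 0.12, miR-532-5p at 0.13 and miR-30d-3p at 0.13, with miR-183-5p at 0.26 and the median non-member at 0.45. let-7i-5p, an abundant let-7 strand, was at 39851 CPM with siRNA 1 and 39782 CPM with siRNA 2 at 48 h, against 68256 CPM and 57166 CPM at 24 h, and untreated cells had 68879 CPM. With the 36 h libraries left out the nearest profile was again that of miR-24-1-5p for miR-96-5p, at 0.14, and became that of miR-532-5p for miR-182-5p, at 0.097.

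**Figure D5:**
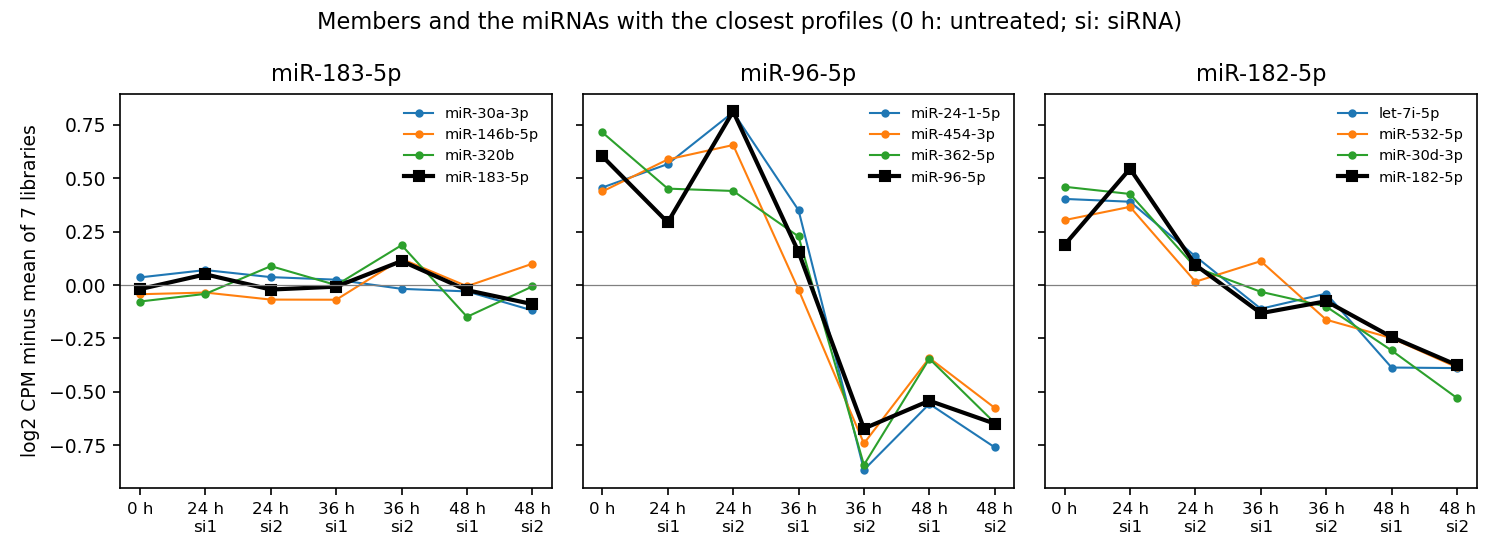
Log2 CPM of miR-183-5p, miR-96-5p and miR-182-5p (black) and of the 3 miRNAs nearest to each (colours), minus the mean of each miRNA over the 7 libraries (vertical axis), in each library (horizontal axis: 0 h untreated, then siRNA 1 and siRNA 2 at 24, 36 and 48 h). The miR-96-5p panel shows the low value of siRNA 2 at 36 h beside those of 48 h, and the miR-183-5p panel stays near 0.

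Other miRNAs related to the cluster by place or role did not move as a block. Of 10 listed strands from other miRNA loci of band 7q32, 7 were tested, and without the 36 h libraries 0 were called higher and 2 lower at 48 h against 24 h, beside the 28.7% of all tested miRNAs called; their median was -0.51 and that of all tested miRNAs -0.01. miR-29b-3p, a strand that targets collagen and other matrix messages and that is also made from a locus on another chromosome, was called at -2.48 ± 0.25 (edgeR adjusted p = 4.5e-21). Its values at 48 h were 159 CPM with siRNA 1 and 148 CPM with siRNA 2, against 409 CPM and 1277 CPM at 24 h. At 36 h they were 570 CPM and 76.3 CPM, where untreated cells had 387 CPM. The standard error and p-value of this call do not reflect the gap between its 24 h libraries. For 48 h against untreated cells its standard error was 1.04 with all libraries and 0.28 without the 36 h pair. The other called strand was miR-335-5p, hosted by MEST, at -1.25 ± 0.50 (edgeR adjusted p = 0.0432). miR-29a-3p, from the hairpin beside that of miR-29b-1, was at 0.11 ± 0.21 (edgeR adjusted p = 0.752). With the 36 h libraries 0 of the 7 were called.

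Of 6 listed other miRNAs reported to target FOXO1, a transcription factor that represses growth and that miR-96, miR-182 and miR-183 are also reported to silence, 4 were tested. Without the 36 h libraries 1 was called higher and 2 lower at 48 h against 24 h, where 28.7% of all tested miRNAs were called in either direction and 17.8% lower. miR-139-5p was higher by 1.30 ± 0.24 (edgeR adjusted p = 7.3e-07), miR-27a-3p lower at -1.06 ± 0.20 (edgeR adjusted p = 2.2e-06) and miR-27b-3p lower at -0.59 ± 0.20 (edgeR adjusted p = 0.0144), and the fourth, miR-132-3p, was at 0.41 ± 0.24 (edgeR adjusted p = 0.204). miR-139-5p had 785 CPM with siRNA 1 and 591 CPM with siRNA 2 at 48 h, against 162 CPM and 388 CPM at 24 h, and 227 CPM in untreated cells. Of 7 epithelial miRNAs 3 were tested in that fit and 1 was called, a share near the 28.7% of all tested miRNAs. It was miR-200b-3p, a repressor of the ZEB factors, which was higher at 2.03 ± 0.51 (edgeR adjusted p = 5.5e-04) with 16.2 CPM and 15.9 CPM at 48 h, against 5.32 CPM and 2.09 CPM at 24 h. Of 5 sensory and retinal miRNAs 2 were tested, miR-9-5p and miR-184, and 0 were called, and miR-124-3p and miR-211-5p had no read in any library. With all 7 libraries 0 members of these lists passed in edgeR.

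Some markers of other cell types differed at 48 h against 24 h in the fit without the 36 h libraries, which called 28.7% of all tested miRNAs. For fibroblast and endothelium 1 of 2 tested markers was called, and for blood 1 of 1. Muscle had 0 of 1 called and neurons 0 of 2. Without the 36 h libraries, the fibroblast marker miR-143-3p was higher at 48 h than at 24 h by 1.19 ± 0.25 (edgeR adjusted p = 1.6e-05) with 446 CPM and 386 CPM, against 196 CPM and 164 CPM. The blood marker miR-451a was higher by 1.51 ± 0.38 (edgeR adjusted p = 4.9e-04). The hepatocyte marker miR-122-5p was lower at -2.22 ± 0.47 (edgeR adjusted p = 2.1e-05), with 4.37 CPM and 3.75 CPM against 32.2 CPM and 4.60 CPM. That difference lay in siRNA 1, with 109 reads at 24 h and 10 at 48 h, while siRNA 2 had 11 and 9. Of the 4 hepatocyte markers tested, miR-192-5p went the other way and was called higher at 0.55 ± 0.21 (edgeR adjusted p = 0.0332), and the other two were not called. The part of other cells in the differences of miR-96-5p and miR-182-5p was not tested. In bulk RNA of this kind fewer cells of a type and less RNA per cell cannot be told apart. The share of reads assigned to miRNAs was 13.4% to 26.5% in the treated libraries and 43.1% in the untreated one. With all reads of a library as the scale every member was below untreated in all 6 treated libraries, with miR-183-5p at 427 to 772 CPM of all reads in treated and 1149 CPM of all reads in untreated cells, and the median tested miRNA at -1.13 over all times.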

How the data were processed

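Small RNA libraries of HepG2 cells were made with an NEB ligation kit from column-purified total RNA, per the labels' protocols. The authors deposited a table for each library, with the raw count of reads for 2652 mature miRNAs and 5 summary lines. Which aligner, counter and genome build they used is not given in the sources used here. Reads given to no feature made up 73.5% to 86.6% of the siRNA-treated libraries and 56.9% of the untreated one, and the summary lines entered neither the library sizes nor the tests. Tests were quasi-likelihood F-tests in R 4.3.3 with edgeR 4.0.16, TMM scaling and a minimum mean count of 10, Benjamini-Hochberg adjusted over all tested miRNAs at 0.05. Untreated cells and the 3 times were groups of 1 fit, and siRNA 2 was compared with siRNA 1 over the 6 treated libraries with time as a term. Standard errors are the log2 fold change divided by the root of F. Profiles used log2 CPM with a prior count of 2. Per-library intervals are exact Clopper-Pearson intervals, and exact permutation tests over libraries (scipy 1.17.1) were used for the read ratios.

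The members, the lists of miRNAs and the fit without the 36 h libraries were chosen with earlier results of these data known. After the data were seen, means, spreads, profiles and ratios were also computed without the 36 h pair. The text names the 4 members, the 3 nearest profiles for each abundant member, and members of 10 lists as examples. Alternatives were DESeq2 1.42.0, limma-voom (limma 3.58.1), other scales, other count filters, each treated library or both 36 h libraries left out, and the siRNA number as a block. The scripts were tested on simulated counts: for 48 h against 24 h over 458 miRNAs, the recovered share was 69.2% for 2-fold and 95.8% for 4-fold changes at a dispersion of 0.04, with 2 false calls among 258 unchanged. For 48 h against untreated cells the recovered shares were lower, 34.4% for 2-fold and 88.4% for 4-fold changes, with 4 false calls among 258 unchanged. Every simulated miRNA had that same dispersion, so these shares do not give the power of the tests on the real counts. There the standard error for 48 h against 24 h was 0.22 for miR-183-5p and 1.17 for miR-122-5p with all libraries. Mature sequences came from the deposited files and RefSeq, and gene annotation from GENCODE v29.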

Additional observations from a re-analysis of the deposited data

Results flagged for a closer look

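miR-183-5p lay above untreated cells in both 36 h libraries and below them in both 48 h libraries. The mean log2 CPM at 48 h minus that at 36 h was -0.11, and the difference was not tested. At 48 h the values were 3054 and 2919 CPM, at 36 h 3089 and 3357 CPM, and in untreated cells 3065 CPM, so the gaps to untreated are small. With the size factors of DESeq2 as the scale all 6 treated libraries were above untreated, and the pattern was absent. No member and no ratio had a library far enough from the other 5 treated libraries to stand out by Dixon's criterion.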

How the results depend on the processing

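The count of called miRNAs, 0 in each comparison in edgeR with all libraries, TMM scaling and the count filter, moved when 36 h libraries were left out and when all reads or no filter were used. Without both, edgeR called 50 for all times, 13 at 24 h, 117 at 48 h and 134 for 48 h against 24 h. Leaving out 1 library at a time gave 0 to 65 for all times, 0 to 14 at 24 h, 0 to 91 at 36 h, 0 to 113 at 48 h and 0 to 131 for 48 h against 24 h. Without siRNA 1 at 36 h the counts were 65, 5, 91, 94 and 122, without siRNA 2 at 36 h they were 31, 14, 14, 113 and 131, and without any other library they were 0. In the same order DESeq2 called 1, 1, 7, 12 and 23, all reads as the scale 120, 2, 49, 118 and 29, and no count filter 12, 2, 10, 39 and 51. Fits without both 36 h libraries on other scales were added after the data were seen: at 48 h total counts called 115 (74 higher, 41 lower) and all reads 185 (5 higher, 180 lower), and for 48 h against 24 h they called 160 and 59. The cause of these shifts was not tested. The siRNA numbers did not pair the libraries, with correlations of deviations of 0.096, -0.25 and -0.16 between times. A replicate block on the siRNA number left 0 calls, with miR-96-5p at -1.19 for 48 h against 24 h, and no replicate block left 0 calls between the siRNAs. Against the median of all tested miRNAs, -0.05 for all times, total counts gave a median of 0.19 and all reads -1.13. Signs of members near 0 changed. For all times miR-182-5p was 0.026 with total counts, and miR-183-5p was -1.06 with all reads and -0.065 with no filter. At 24 h miR-96-5p was 0.039 with DESeq2, 0.039 with its size factors, 0.017 with a minimum mean count of 50 and 0.038 without both 36 h libraries; all reads gave -0.89 for miR-183-5p, -0.92 for miR-183-3p and -0.73 for miR-182-5p, and no filter gave -0.028 for miR-183-5p and -0.047 for miR-183-3p. At 36 h total counts gave 0.091 for miR-183-3p and 0.049 for miR-182-5p, and miR-183-5p was -1.13 with all reads and -0.044 with no filter. At 48 h miR-183-5p was 0.032 with DESeq2 and with its size factors, 0.32 with total counts, with or without 36 h libraries, and 0.0087 without them; against 24 h total counts gave it 0.27 in both fits. Between the siRNAs miR-183-5p was -0.033 with all reads, miR-96-5p 0.027 with no replicate block, and without the 36 h libraries miR-183-3p was 0.26 and miR-96-5p 0.31. Leaving out 1 library at a time gave, at 24 h, -0.0014 to 0.057 for miR-183-5p, -0.017 to 0.037 for miR-183-3p, -0.32 to 0.21 for miR-96-5p and -0.094 to 0.34 for miR-182-5p; at 36 h -0.62 to 0.11 for miR-183-3p; at 48 h -0.073 to 0.0029 for miR-183-5p; and between the siRNAs -0.023 to 0.080 for miR-183-5p, -0.33 to 0.25 for miR-183-3p, -0.44 to 0.28 for miR-96-5p and -0.25 to 0.014 for miR-182-5p. miR-96-5p, miR-182-5p and miR-183-3p were below 0 at 48 h, against untreated cells and against 24 h, under all alternatives run. miR-96-5p also passed for 48 h against 24 h with no count filter (edgeR adjusted p = 0.0388), with all reads as the scale for all times, at 36 h and at 48 h, and for all times without siRNA 1 at 36 h. At 48 h against untreated cells with all reads as the scale, miR-183-3p (-2.44, edgeR adjusted p = 0.0429) and miR-182-5p (-1.62, edgeR adjusted p = 0.0462) passed too, and also without the 36 h libraries (edgeR adjusted p = 0.00687 and 0.0139). Over the alternatives their adjusted p reached 0.819 for miR-183-3p and 0.931 for miR-182-5p. The 5 to 35 reads of miR-183-3p limit what can be said of it.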
